A study of Gallus gallus with 24 samples.

Results

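The net change was measured between freshly isolated chick atria and atria cultured with CN03, a cell-permeable activator of RhoA. It holds the effects of 14 h of culture and of CN03 together, which cannot be told apart between these groups alone, and the vehicle cultured atria were used to sort the genes that culture itself had moved. The comparison took 8 of the 24 libraries of the series and all 12422 gene symbols of the expression table. All groups were primary tissue of embryos at HH stage 30, and the labels name no genetic change and no sex. Fresh atria (t0) were never cultured. Vehicle atria were cultured for 14 h in DMEM/F12 medium with fetal bovine serum, penicillin-streptomycin and amphotericin B, with water as vehicle, and CN03 atria were cultured for the same time in the same medium with 0.25 ug/ml CN03. Each group held 4 libraries, each made from a pool of tissue preparations, so the spread between libraries was a spread between pools rather than between single embryos. The remaining 12 libraries were the same 3 groups of sinoatrial node (SAN).

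RhoA is a small GTPase that cycles between an inactive state bound to GDP and an active state bound to GTP, and its active form drives actin filament assembly and contractility through formins and the kinase ROCK. Assembly of actin filaments releases the coactivators MRTF-A and MRTF-B, which act with SRF on genes of the actin cytoskeleton, and tension on the cytoskeleton also favours nuclear YAP, which acts with TEAD factors. The embryonic atrium is a thin wall of working myocardium that secretes natriuretic peptide and is lined by endocardium and covered by epicardium.

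Values are deposited log2 expression values, fold changes are differences of group means on that scale (log2FC), and the lowest value of the table was -5.87. Read depth is not known for these values, and the precision rests on the 4 pools. Across genes, libraries of the same atrial group correlated with r between 0.98 and 0.99, and the library medians lay between 4.67 and 4.72. In linear units the CN03 atria summed to 1.25 times the fresh atria when the row with no gene symbol was counted. Over the 12422 genes alone, the sums were between 884600 and 939800 in fresh atria and between 1053000 and 1150000 with CN03. That row, which was left out of the gene results, held 17.9% of the linear sum of CN03 pool 2. It held between 7.1% and 9.4% in the other atrial libraries. The summed linear level of 10 cardiomyocyte markers was between 15640 and 22430 in fresh atria, between 20090 and 23690 with vehicle and between 11150 and 16550 with CN03. With CN03, 1 of the 10 was called higher than in fresh atria and 1 lower, with a median net log2FC of -0.23. The sums therefore do not show that each marker fell with CN03. No other tissue was set beside these sums, so they do not test the label of atria.

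With limits of 0.05 on the adjusted p and of 1 on the log2FC, up or down, 4239 genes separated CN03 cultured from fresh atria, which was 34.1% of the genes tested. Of these, 2019 were higher (16.3% of genes) and 2220 lower (17.9%) after CN03 culture, so that 47.6% of the calls were higher. The CN03 and fresh pools did not overlap for 4160 of the 4239 genes, against 70.0% of all genes tested. The net log2FC was above 2 for 798 genes and above 4 for 181, and it was below -2 for 708 genes and below -4 for 76. Vehicle culture alone moved 2380 genes (19.2%) past the same limits, 1260 up (10.1%) and 1120 down (9.02%). Of the net calls, 2693 were not called with vehicle, 1248 of them higher and 1445 lower. Both comparisons used the same fresh pools. A pool of tissue cannot tell fewer cells of a type from less RNA per cell, which holds for each result here.

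The 12 leading net rises included a lipase, muscle proteins of the actin cytoskeleton, a heat shock protein, cytokines and secreted antagonists. LIPG, a lipase of the endothelial cell surface, was at -2.35, -1.96, -2.50 and -2.37 in the fresh pools, 2.01, 1.45, 1.95 and 1.57 with vehicle and 8.20, 8.78, 8.70 and 8.06 with CN03. The CN03 pools lay far above both other groups, and the net log2FC was 10.73 (SE 0.46, adjusted p = 1.03e-15). ABRA, a striated muscle protein that binds actin and promotes MRTF and SRF signalling, was at -1.82, -1.74, -2.28 and -2.16 in fresh atria and -3.29, -3.76, -2.15 and -3.87 with vehicle, and at 8.55, 8.79, 8.29 and 7.95 with CN03. The fresh and vehicle pools overlapped, and the net log2FC was 10.40 (SE 0.29, adjusted p = 4.87e-19). ANKRD1, a sarcomeric and nuclear protein of stretched cardiomyocytes, was at 2.52, 3.38, 2.89 and 2.31 in fresh atria, 2.75, 1.93, 2.39 and 0.90 with vehicle and 12.40, 12.30, 12.01 and 12.13 with CN03. Its fresh and vehicle pools overlapped, and its net log2FC was 9.43 (SE 0.27, adjusted p = 7.62e-19). HSPB9, a small heat shock protein, went from 3.78, 4.21, 3.91 and 3.82 in fresh atria and 5.92, 4.39, 4.83 and 5.44 with vehicle to 12.04, 12.13, 12.15 and 12.13 with CN03, a net log2FC of 8.18. KRT23, a keratin, was at -2.27, -2.64, -3.08 and -3.52 in fresh atria and 6.26, 6.57, 6.64 and 6.09 with CN03, while the vehicle pools at -3.76, -2.55, -4.03 and -5.18 stayed in the low range.

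Cytokines and secreted antagonists made up most of the other leading rises. LIF, a cytokine of the IL6 family, was at -2.94, -2.52, -3.23 and -4.76 in fresh atria and 1.93, 1.65, 1.54 and 2.09 with vehicle, and at 6.79, 7.06, 7.35 and 6.74 with CN03. The 3 groups did not overlap, and the net log2FC was 10.34. The chicken CXCL8-like chemokine IL8L1 had a net log2FC of 9.65, but 1 fresh pool stood at the lowest value of the table and the size of the change is uncertain. IL8L2, the other chemokine of that kind, was at -1.49, -3.73, -1.76 and -2.995 in fresh atria, 5.02, 5.07, 5.33 and 5.90 with vehicle and 6.01, 6.58, 6.79 and 5.39 with CN03, so that vehicle culture alone covered a log2FC of 7.83 of the net 8.69. IL6 itself was at 5.13, 5.37, 5.90 and 5.07 with CN03 against -2.25, -2.82, -2.99 and -5.87 in fresh atria, where 1 pool was at the lowest value. FST, which encodes follistatin, an inhibitor of activin, was at 0.46, 0.39, -0.42 and 0.16 in fresh atria, 1.96, 2.62, 2.65 and 2.62 with vehicle and 8.57, 8.31, 9.03 and 7.89 with CN03, a net log2FC of 8.30. CER1, a secreted antagonist of Nodal and BMP ligands, was at -5.31, -4.09, -5.87 and -5.87 in fresh atria, at 1.95, 3.16, 2.98 and 3.23 with vehicle and at 2.92, 2.66, 4.07 and 2.30 with CN03. The vehicle and CN03 pools of CER1 overlapped, and 2 fresh pools were at the lowest value. MHM2 was listed at the lowest value in every fresh pool and stood at 1.88, 3.12, 2.16 and 1.89 with CN03, so no fold is given for it. When a pseudocount of 1 was added on the linear scale, which shrinks changes of low genes, the net log2FC of LIPG was 8.17, that of ABRA 8.08, that of IL8L1 5.08 and that of CER1 3.13.

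**Figure D1:**
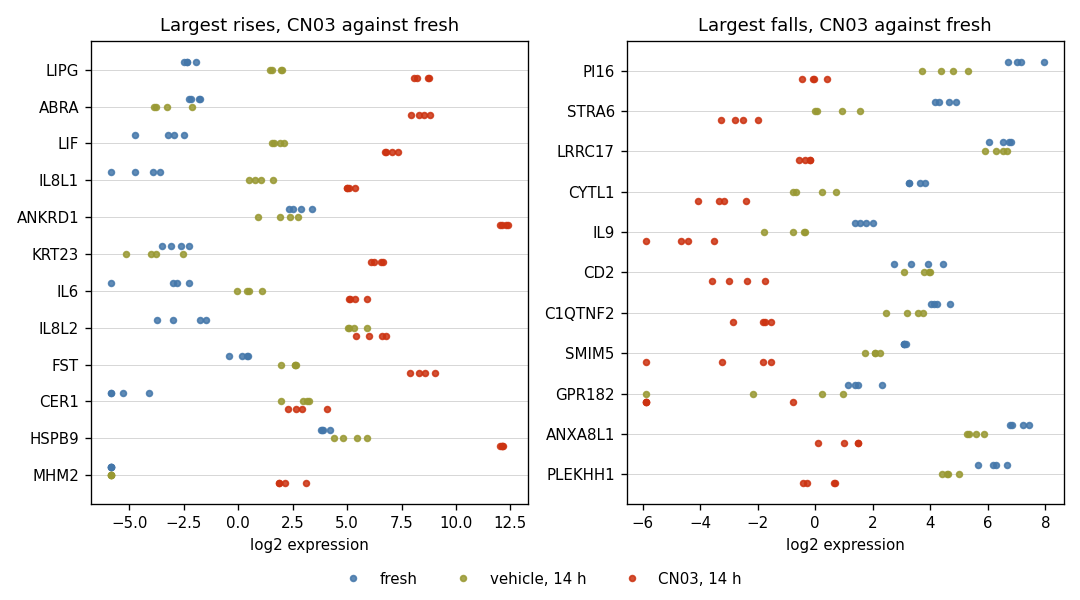
Log2 expression in each pool of the 12 genes with the largest net rise (left) and 11 of those with the largest net fall (right) between fresh and CN03 cultured atria. Each point is 1 pool, 4 per group, and the horizontal axis is the deposited log2 value, with a lowest possible value of -5.87. CN03 pools lie to the right of all fresh pools on the left and to the left of them on the right, and the vehicle pools lie near the fresh pools for ANKRD1 and KRT23 and near the CN03 pools for CER1.

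The leading net falls included a retinol transporter and several secreted proteins. PI16, a secreted peptidase inhibitor expressed by fibroblasts, was at 7.02, 7.95, 7.14 and 6.69 in fresh atria, 3.70, 5.30, 4.80 and 4.39 with vehicle and -0.07, -0.47, 0.40 and -0.03 with CN03, a net log2FC of -7.24 (SE 0.37, adjusted p = 1.83e-14). STRA6, the cell surface receptor for retinol-binding protein, was at 4.29, 4.90, 4.65 and 4.17 in fresh atria, 0.06, 0.93, 1.54 and -0.02 with vehicle and -3.28, -2.80, -2.50 and -1.99 with CN03. Vehicle culture covered -3.88 of the net log2FC of -7.15 for STRA6. LRRC17, a secreted leucine-rich repeat protein, was at 6.03, 6.74, 6.53 and 6.80 in fresh atria and 5.90, 6.67, 6.54 and 6.27 with vehicle, which overlapped, and at -0.55, -0.18, -0.35 and -0.18 with CN03. Its net log2FC was -6.84. CD2, an adhesion molecule of T cells and natural killer cells, was at 3.92, 2.73, 4.43 and 3.33 in fresh atria, 3.97, 3.98, 3.80 and 3.09 with vehicle and -1.76, -2.37, -2.99 and -3.58 with CN03. C1QTNF2, a secreted protein of the C1q and TNF-related family, had a net log2FC of -6.26 and PLEKHH1, a protein with pleckstrin homology domains, one of -6.03. ANXA8L1, an annexin that binds phospholipid with calcium, was at 6.77, 7.42, 6.85 and 7.23 in fresh atria and 1.49, 0.08, 1.49 and 0.996 with CN03. CYTL1, a secreted cytokine-like protein, had a net log2FC of -6.75 and a vehicle log2FC of -3.61. IL9, SMIM5 and GPR182 were also among the leading falls, but each had CN03 pools at the lowest value of the table, 3 of the 4 for GPR182, a receptor of endothelial cells, so their sizes are uncertain.

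The genes were next described by function. Across all genes tested, the median net log2FC was -0.03, and 16.3% were higher and 17.9% lower than in fresh atria. With vehicle 10.1% were higher and 9.02% lower. The counts of each list below stand against these shares. Targets of MRTF and SRF and of YAP and TEAD were more often higher than lower with CN03, and more often lower than higher with vehicle. Of 26 measured MRTF-SRF targets, 14 were higher and 1 lower than in fresh atria, with a median net log2FC of 1.23, while with vehicle 2 were higher and 6 lower with a median of -0.56. ACTA2, the smooth muscle actin that is also expressed in embryonic heart muscle, was at 6.93, 7.39, 7.27 and 7.09 in fresh atria, at 4.96, 5.62, 5.40 and 4.68 with vehicle and at 9.78, 10.02, 10.45 and 9.84 with CN03. Vehicle pools lay below and CN03 pools above every fresh pool, and the net log2FC was 2.85 (adjusted p = 7.69e-12). TAGLN, an actin-binding protein of smooth muscle, had overlapping fresh and vehicle pools and a net log2FC of 5.10, from 3.88, 3.60, 4.16 and 4.06 to 8.64, 9.06, 9.64 and 8.78. CNN2, a calponin, was the member of the list that CN03 kept near the fresh level, with a vehicle log2FC of -1.40 and a net log2FC of 0.55.

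Of 18 measured YAP-TEAD targets, 10 were higher and 2 lower than in fresh atria, with a median net log2FC of 1.23, against 0 higher and 5 lower with vehicle and a median of -0.61. CCN2, a matricellular protein, was at 5.65, 5.72, 6.10 and 5.70 in fresh atria, 5.22, 5.70, 6.11 and 4.88 with vehicle and 10.69, 10.76, 11.03 and 10.80 with CN03, a net log2FC of 5.03 (adjusted p = 2.11e-15). AMOTL2, an angiomotin that binds YAP, fell to 4.18, 4.35, 4.76 and 4.01 with vehicle from 5.64, 5.46, 5.62 and 5.24 and stood at 7.69, 7.70, 7.79 and 7.51 with CN03. F3, the tissue factor that starts coagulation, and PTPN14, a phosphatase that binds YAP, were kept near the fresh level. F3 had a vehicle log2FC of -1.40 and a net log2FC of 0.10, and PTPN14 had -1.39 and 0.29.

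Stress genes were mostly higher than in fresh atria. All 20 measured immediate early genes were higher than in fresh atria, with a median net log2FC of 3.24 against 1.06 with vehicle. FOSL2, a member of the AP-1 family, was at 2.96, 3.36, 2.89 and 2.18 in fresh atria, 4.58, 4.69, 4.58 and 4.39 with vehicle and 9.10, 8.88, 9.29 and 8.78 with CN03. The orphan nuclear receptors NR4A1 and NR4A3 had net log2FCs of 6.50 and 5.54. Of 23 genes of the amino acid and ER stress response, 18 were higher and 1 lower, with a median of 2.41. CEBPB, a bZIP transcription factor, rose from 0.97, 1.10, 0.56 and 0.42 in fresh atria to 5.97, 5.56, 6.20 and 6.27 with vehicle and 8.31, 8.31, 8.29 and 8.26 with CN03. ATF3, another bZIP factor of the stress response, had a net log2FC of 5.10 and a vehicle log2FC of 0.89. CHAC1, which degrades glutathione, had a net log2FC of 6.05 and a vehicle log2FC of 4.11. SESN2, a sestrin induced by stress, had a net log2FC of 4.47.

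Of 21 heat shock genes, 15 were higher and 0 lower, with a median net log2FC of 1.43, whereas vehicle raised 1 and lowered 1 with a median of 0.18. HSPB7, a small heat shock protein of cardiac muscle, was at 3.58, 3.38, 3.62 and 3.08 in fresh atria, 4.38, 4.25, 4.29 and 4.54 with vehicle and 9.22, 9.24, 9.01 and 9.32 with CN03. DNAJA4, a co-chaperone, had a net log2FC of 4.09, and CRYAB, a small heat shock protein of striated muscle and lens, one of 3.54. Glycolysis and hypoxia response genes were higher in both cultures. Of the 32 genes, 19 were higher and 0 lower with CN03 and 20 were higher and 0 lower with vehicle. ENO2, an enolase, was at 1.60, 1.05, 1.58 and 1.94 in fresh atria, 8.26, 7.12, 6.84 and 8.13 with vehicle and 8.12, 7.15, 7.15 and 7.89 with CN03, so that vehicle and CN03 pools overlapped. PFKFB3, which makes the activator of phosphofructokinase, went further with CN03, with a vehicle log2FC of 2.08 and a net log2FC of 5.01. SLC16A3, a lactate exporter, had a vehicle log2FC of 2.46 and a net log2FC of 4.21. Of 19 cholesterol synthesis genes, 14 were higher and 0 lower, with a median of 1.73, against 2 higher with vehicle and a median of 0.73. HMGCS1, the synthase that makes HMG-CoA, was at 5.41, 5.55, 5.62 and 5.15 in fresh atria, 6.60, 6.74, 6.79 and 6.49 with vehicle and 8.03, 8.01, 8.04 and 7.78 with CN03. MSMO1 and HSD17B7, enzymes of later steps, had net log2FCs of 2.55 and 2.95.

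Inflammatory, matrix and growth factor genes were mixed. Of 23 genes of the NF-kB and interferon response, 15 were higher and 2 lower, with a median net log2FC of 1.61 against 1.05 with vehicle. CCL4, a chemokine, was at -0.41, -1.11, -0.88 and -1.83 in fresh atria, 4.02, 3.82, 4.33 and 4.53 with vehicle and 5.27, 5.62, 5.32 and 5.48 with CN03. CSF3, a growth factor of granulocytes, was at 1.996, 1.82, 1.62 and 1.94 with CN03, while 2 of its fresh pools stood at the lowest value. Of 42 collagen and matrix genes, 14 were higher and 7 lower, with a median of 0.11, against 16.3% and 17.9% of all genes. The share lower was near that of all genes. TNC, the matrix glycoprotein tenascin-C, was at 1.16, 0.86, 0.76 and 0.83 in fresh atria, 1.59, 1.92, 1.87 and 1.83 with vehicle and 7.55, 8.04, 7.99 and 8.13 with CN03, a net log2FC of 7.03 (adjusted p = 1.61e-15). THBS1, a thrombospondin, had overlapping fresh and vehicle pools and a net log2FC of 5.25. COL12A1, a collagen associated with fibrils, had a net log2FC of 4.35. Of 27 genes of BMP and TGF-beta signalling, 12 were higher and 5 lower, with a median of 0.77. INHBA, the activin A subunit, rose from 3.09, 3.79, 3.33 and 3.78 in fresh atria to 7.72, 7.96, 8.04 and 7.75 with CN03. BMP5, a BMP ligand, fell from 5.68, 5.87, 5.99 and 5.68 to 3.43, 2.63, 3.03 and 3.31, and GREM1, a BMP antagonist, had a net log2FC of -2.71. Both had overlapping fresh and vehicle pools, with vehicle log2FCs of -0.20 and -0.04. Of 22 feedback genes of WNT, FGF and Notch signalling, 10 were higher and 2 lower with a median of 0.82, and SPRY4, an inhibitor of FGF signalling, had a net log2FC of 4.27. Of 18 clock genes, 8 were higher and 1 lower with a median of 0.80. With vehicle, 8 were also higher and 1 lower, with a median of 0.97. BHLHE40, a repressor of the clock, was at 2.53, 2.87, 2.94 and 2.66 in fresh atria. It rose to 8.29, 7.78, 7.71 and 8.08 with vehicle and 9.97, 9.60, 9.65 and 9.93 with CN03.

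The lists whose median net log2FC was close to 0 had no stable sign. After quantile normalization between libraries the median was -0.05 for the collagen and matrix genes, -0.05 for the sarcomere genes, -0.03 for atrial identity, -0.01 for pacemaker identity and -0.19 for the ribosomal proteins, all of which had a small positive median as deposited. The other lists kept their sign, but the median moved to -0.49 for the respiratory chain, to 0.01 for the p53 response and to -0.02 for the ion channels. The median of all genes was then -0.09.

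**Figure D2:**
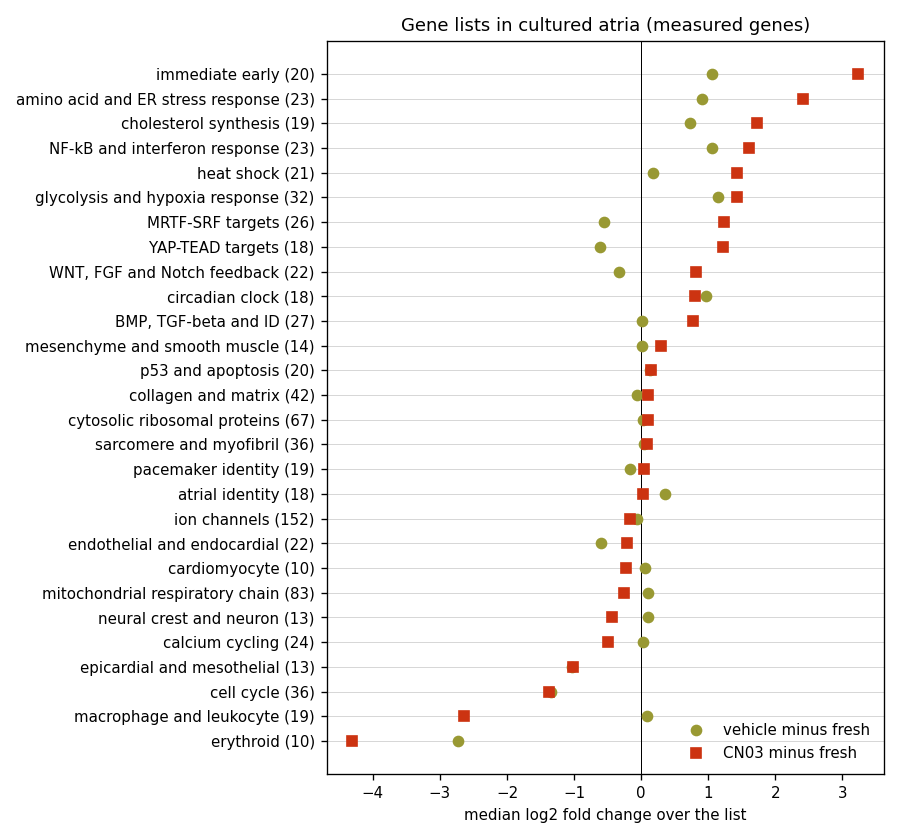
Median log2FC over the measured genes of each list, for vehicle minus fresh atria (circles) and CN03 minus fresh atria (squares), with the number of measured genes in parentheses. The immediate early list has the highest net median at 3.24 and the erythroid list the lowest at -4.31, and the macrophage list is near 0 with vehicle and at -2.64 with CN03.

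Cell cycle genes were lower in both cultures. Of 36 genes, 25 were lower and 1 higher than in fresh atria after CN03, with a median of -1.37, and 31 were lower with vehicle with a median of -1.34. TYMS, the thymidylate synthase, was at 6.44, 6.76, 6.46 and 6.60 in fresh atria, 4.45, 4.13, 4.34 and 4.25 with vehicle and 4.30, 3.94, 4.05 and 3.997 with CN03, and its vehicle and CN03 pools overlapped. MCM3, a subunit of the replicative helicase, went further with CN03, with a vehicle log2FC of -1.15 and a net log2FC of -2.50. The member counted higher was CCNE1, a cyclin of entry into S phase, with a net log2FC of 1.13. Of 20 genes of the p53 response and apoptosis, 5 were higher and 1 lower with a median of 0.15. CDKN1A, a cyclin-dependent kinase inhibitor, was the p53 target with the largest net change, at 1.66, 1.26, 1.04 and 0.58 in fresh atria, 3.73, 3.73, 3.93 and 3.84 with vehicle and 6.10, 6.28, 6.46 and 6.28 with CN03.

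Genes of the atrial muscle moved in both directions. Of 36 sarcomere and myofibril genes, 12 were higher and 5 lower than in fresh atria, with a median of 0.08. MYOM3, a myomesin of the M-band, was at -0.92, -0.47, -1.10 and -0.40 in fresh atria and -0.21, -1.03, 0.05 and -0.35 with vehicle, and at 4.50, 4.79, 4.29 and 4.33 with CN03. DES, the muscle intermediate filament desmin, had overlapping fresh and vehicle pools and rose from 9.36, 8.58, 9.16 and 9.35 to 12.27, 12.24, 12.07 and 12.41, a net log2FC of 3.13. MYBPC1, a myosin-binding protein, had a vehicle log2FC of 3.80 and a net log2FC of 5.51. Of the 10 cardiomyocyte markers, 1 was higher and 1 lower, which were PLN, the inhibitor of the calcium pump of the sarcoplasmic reticulum, with a net log2FC of 1.80, and MYH7, a cardiac myosin heavy chain, which fell from 12.39, 11.67, 12.20 and 12.26 to 10.40, 10.41, 10.04 and 10.40. Of 24 calcium cycling genes, 4 were higher and 6 lower with a median of -0.50, against 16.3% and 17.9% of all genes. SRL, the calcium-binding protein sarcalumenin, had a net log2FC of -2.35.

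Of 18 genes of atrial identity, 5 were higher and 5 lower, with a median of 0.03. NPPA, the atrial natriuretic peptide, was at 10.74, 10.47, 10.66 and 10.11 in fresh atria, 9.55, 9.22, 9.37 and 9.14 with vehicle and 14.78, 14.61, 14.19 and 14.58 with CN03. The vehicle pools lay below and the CN03 pools above all fresh pools, and the net log2FC was 4.05 (SE 0.23, adjusted p = 1.28e-13). In linear units the summed level of the list rose with NPPA, from between 3781 and 4653 in fresh atria to between 20850 and 30970 with CN03. MYL10, a myosin light chain, followed the same course, with a vehicle log2FC of -1.59 and a net log2FC of 3.26. PAM, the enzyme that amidates secreted peptides, rose from 5.52, 5.30, 5.62 and 5.53 to 7.91, 7.78, 7.77 and 7.71. SLN, a small inhibitor of the calcium pump, went the other way, to 5.41, 5.60, 5.72 and 5.56 with vehicle from 3.68, 2.43, 4.43 and 4.51 and to 1.46, 0.73, 0.82 and 2.83 with CN03. The T-box factors TBX5 and TBX20, which act in chamber myocardium, were lower by a net log2FC of -2.10 and -2.27.

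Of 19 genes of pacemaker identity, 4 were higher and 7 lower, with a median of 0.04. SMOC2, a matricellular protein, was at 7.40, 8.49, 7.76 and 7.89 in fresh atria, 4.60, 5.40, 5.16 and 4.75 with vehicle and 1.99, 2.11, 2.67 and 2.34 with CN03, a net log2FC of -5.61. TBX18, a T-box factor of the sinus horn and the epicardium, fell to 6.46, 6.97, 6.88 and 6.38 and 4.57, 4.78, 5.16 and 4.95 from 8.14, 8.86, 8.54 and 7.99. CACNA1G, a T-type calcium channel, had a net log2FC of -2.88, and HCN3, a channel of the pacemaker current family, one of 2.39. Of 152 ion channel genes, 40 were higher and 42 lower, with a median of -0.16. KCNK3, a leak potassium channel, was at -1.01, -2.999, -3.23 and -1.25 in fresh atria, 3.15, 2.61, 2.91 and 3.14 with vehicle and 3.07, 2.28, 2.03 and 2.33 with CN03, so its rise was present with vehicle alone. TRPC4, a cation channel, had overlapping fresh and vehicle pools and stood at 3.48, 3.29, 3.89 and 3.37 with CN03. KCNG1, a modifying subunit of potassium channels, had a vehicle log2FC of -3.12 and a net log2FC of -3.58.

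Few genes of the respiratory chain and of the ribosomal proteins passed the limits. Of 83 nuclear genes with symbol prefixes of the respiratory chain, 0 were higher and 1 lower, with a median of -0.26. The CN03 pools lay wholly below the fresh pools for 34 of these genes and wholly above for 4. Over all 12422 genes tested they lay wholly below for 4445 and wholly above for 4256. The member that fell was ATP5F1AW, on the W chromosome at position 2351102 to 2419564 of GRCg7b, with a net log2FC of -2.22. It has a close copy on the Z chromosome with which reads could be split, and the sex of the pooled embryos was not analysed here. Of 67 cytosolic ribosomal protein genes, 0 were higher and 2 lower, with a median of 0.10. They were RPL3L, a muscle paralog of RPL3, at -1.35, and RPS27L at -1.06, and neither call held with a pseudocount of 1.

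Markers of other cell types moved with the net change, and their part in it was not tested. Erythroid genes fell in 9 of 10 measured members, with a median of -4.31, and with vehicle in 9 with a median of -2.72. HBZ, an embryonic globin, was at 9.38, 9.58, 8.58 and 8.82 in fresh atria, 7.12, 6.28, 5.07 and 6.11 with vehicle and 3.11, 4.66, 2.65 and 5.86 with CN03. The summed linear level of the list was between 1593 and 3993 in fresh atria, between 182 and 1101 with vehicle and between 90.2 and 563 with CN03, so the cultured groups overlapped. HBBA, a beta globin gene, had a net log2FC of -4.40, and reads shared between the globin genes could be split among them. The member that rose was TAL1, a transcription factor of blood and endothelium, at 1.47. Of 19 macrophage and leukocyte genes, 14 were lower and 2 higher with CN03 with a median of -2.64, whereas vehicle raised 7 and lowered 1 with a median of 0.09. LY86, a lymphocyte antigen that associates with a Toll-like receptor homolog, was at 2.56, 2.32, 2.35 and 1.96 in fresh atria, 1.24, 2.26, 1.92 and 1.72 with vehicle and -3.18, -2.25, -3.16 and -2.73 with CN03. The summed linear level of this list was between 86.8 and 122.0 in fresh atria, between 145 and 236 with vehicle and between 73.9 and 84.8 with CN03. The members that rose with CN03 were MRC1, a mannose receptor, at 2.29 and CYBB, a subunit of the phagocyte oxidase, at 1.06, which were named after their values were seen. No member of either list was at the lowest value in every CN03 pool, and C1QC, a complement component of macrophages, was there in 2.

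Epicardial genes were lower in 7 and higher in 2 of 13 measured members, with a median of -1.01, and vehicle lowered 8 with a median of -1.03. BNC1, a zinc finger protein of mesothelium, was at 4.76, 5.57, 5.04 and 4.86 in fresh atria, 2.91, 3.35, 3.61 and 3.15 with vehicle and -0.08, 0.45, 0.94 and 0.03 with CN03. WT1, a transcription factor of the epicardium, had a net log2FC of -2.46. The higher members were UPK1B, a uroplakin, at 1.65, a call lost with a pseudocount of 1, and PODXL, a sialomucin also found on endothelium, at 1.02. The summed linear level of this list was between 2410 and 3818 in fresh atria, between 1029 and 1342 with vehicle and between 1357 and 1765 with CN03. Of 22 endothelial and endocardial genes, 6 were higher and 4 lower with CN03, with a median of -0.21, and 9 were lower with vehicle. Over all genes 16.3% were higher and 17.9% lower with CN03, and 9.02% were lower with vehicle. FLT1, a VEGF receptor, rose from 4.76, 4.59, 4.87 and 4.17 to 8.10, 7.45, 7.75 and 7.44, whereas NPR3, the clearance receptor for natriuretic peptides, fell from 6.50, 5.43, 6.07 and 5.95 to 2.35, 2.29, 3.01 and 2.34. Of 14 mesenchyme and smooth muscle genes, 5 were higher and 4 lower. TWIST1, a transcription factor of mesenchyme, had a net log2FC of 3.62, and RGS5, a regulator of G protein signalling in pericytes, was at 3.63, 4.03, 3.23 and 3.90 in fresh atria, 6.64, 6.93, 6.48 and 6.45 with vehicle and 1.82, 1.54, 1.37 and 3.52 with CN03. Of 13 neural crest and neuron genes, 1 was higher and 3 lower, against 16.3% and 17.9% of all genes. Among those lower was TH, which makes the precursor of catecholamines, at a net log2FC of -2.61.

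The 2380 genes that vehicle culture had moved were then sorted by their position in CN03 cultured atria. A gene was taken as kept near the fresh level when the whole 95% confidence interval of CN03 minus fresh lay within 1 log2 on either side of 0 and CN03 differed from vehicle at an adjusted p under 0.05 in the direction opposite to the vehicle change. These are descriptions, since the classes were read from the same libraries and every class shares its fresh pools. By this rule 458 genes were kept, which is 19.2% of the genes moved by vehicle and 3.69% of all genes. Vehicle had raised 229 of them and lowered 229. The rule set no size for the difference from vehicle. That difference was above 1 log2 for 328 of the 458, 168 raised and 160 lowered by vehicle, and smaller for the others. A further 1310 (55%) were called in the direction of vehicle, 678 raised and 632 lowered. Another 236 (9.92%) went past the fresh level to a call on the opposite side, 143 of which vehicle had raised and 93 of which it had lowered. The remaining 376 (15.8%) met none of these conditions.

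**Figure D3:**
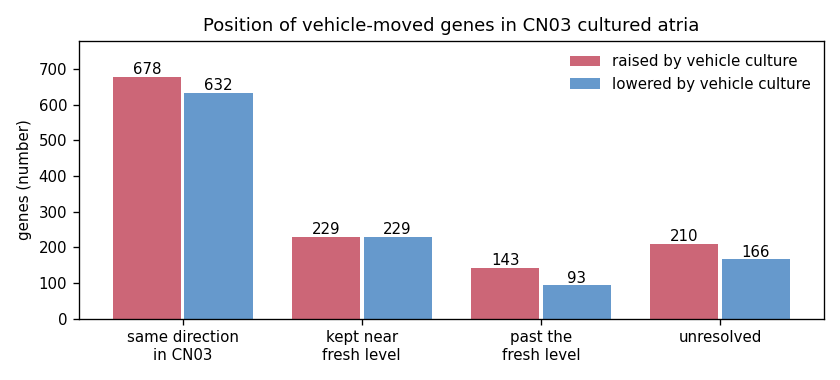
Number of genes raised (left bar of each pair) or lowered (right bar) by vehicle culture that fell in each class of position in CN03 cultured atria. The class moved in the same direction holds 678 and 632 genes, the class kept near the fresh level 229 and 229, the class past the fresh level 143 and 93, and 210 and 166 genes are unresolved.

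Among the kept genes that vehicle had raised, the median vehicle log2FC was 1.43 and the median net log2FC 0.11. Among those it had lowered, the medians were -1.29 and -0.06. The vehicle pools overlapped neither the fresh nor the CN03 pools for 436 of the 458. The rule asked for both differences, so this separation follows largely from the choice of the genes. Over all genes, the vehicle pools stood apart from the fresh pools for 54.0% and from the CN03 pools for 66.5%. The CN03 and fresh pools overlapped for 325 of the kept genes. Of all genes, 72.5% differed between CN03 and vehicle at an adjusted p under 0.05, the condition that the rule used. The interval of the net change lay within 1 log2 for 51.1% of all genes, for 58.7% of the genes that vehicle had not moved and for 19.3% of those it had moved. The genes kept had a median level of 4.36 in fresh atria, near the 4.70 of all genes, and a median SE of 0.16 against 0.13. Genes just inside the limit were GMPR2 and CAPN3, whose farthest bound was -0.999 in both, and SMTNL1 at 0.999, and just outside were HTATIP2 at -1.001, LAMA3 at -1.003 and NCAPD2 at -1.004.

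The 12 kept genes with the largest vehicle rise included receptors, calcium sensors and enzymes. PROKR1, a receptor for prokineticins, was at -0.88, 0.86, 1.497 and 0.56 in fresh atria, 5.46, 5.21, 4.58 and 4.64 with vehicle and 0.33, 0.75, 0.24 and 0.64 with CN03. The CN03 pools lay within the range of the fresh pools, and the net log2FC was -0.02, with an interval from -0.69 to 0.65. ESYT3, a tether between endoplasmic reticulum and plasma membrane, was at -1.10, 0.10, 0.24 and -0.99 in fresh atria, 2.98, 3.35, 2.89 and 2.98 with vehicle and -0.52, -0.16, -1.002 and 0.29 with CN03. NR0B1, the orphan nuclear receptor DAX1, was at 0.70, 0.91, 0.91 and 1.003, 3.88, 4.39, 4.74 and 4.38 and 1.01, 0.15, 0.39 and 0.81 in the same order. The fresh and CN03 pools of both genes overlapped, and the net log2FC was 0.09 for ESYT3 and -0.29 for NR0B1. FGF1, a fibroblast growth factor, was at -0.999, -0.56, -0.60 and -0.43 in fresh atria, 2.73, 2.72, 2.55 and 2.59 with vehicle and 0.22, -1.52, -0.88 and -0.63 with CN03. GUCA1B, an activator of guanylate cyclase best known from photoreceptors, was at 0.71, 0.14, 0.42 and 0.36, 3.92, 4.08, 3.20 and 4.04 and 1.05, 0.90, -0.38 and 1.03, where CN03 pool 3 stood below the other 3.

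MGAT3, a glycosyltransferase that adds the bisecting sugar to N-glycans, was the most tightly grouped of these genes with vehicle, at 8.84, 8.77, 8.72 and 8.72 against 5.79, 5.85, 5.77 and 5.88 in fresh atria and 5.53, 5.31, 5.45 and 5.80 with CN03. REEP1, a protein that shapes the endoplasmic reticulum, was at 5.22, 4.62, 5.04 and 5.11 in fresh atria, 8.15, 8.02, 7.79 and 8.06 with vehicle and 4.82, 4.54, 4.56 and 5.24 with CN03. Their net log2FCs were -0.30 and -0.21, with intervals from -0.54 to -0.07 and from -0.49 to 0.07. DHRS11, a short-chain dehydrogenase, had a vehicle log2FC of 3.17 and a net log2FC of -0.03. PTGDS, a prostaglandin D synthase, had 2.98 and 0.21 with CN03 pools at 1.05, 0.81, 0.72 and 2.44. TESC, a calcium-binding regulator of sodium-proton exchange, had a vehicle log2FC of 2.93 and a net log2FC of -0.41. NECAB1, a neuronal calcium-binding protein, had 2.89 and -0.25, and PPEF1, a phosphatase with calcium-binding hands, 3.11 and 0.11.

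The 12 kept genes with the largest vehicle fall included guidance factors, a neuropeptide and an endothelial cadherin. RASL11B, a small GTPase related to Ras, was at 7.16, 6.77, 7.12 and 6.90 in fresh atria, 3.57, 4.15, 3.99 and 3.79 with vehicle and 6.999, 7.31, 7.05 and 7.11 with CN03, a vehicle log2FC of -3.11 and a net log2FC of 0.13. SEMA3C, a semaphorin of outflow tract development, was at 4.64, 4.27, 4.61 and 4.48 in fresh atria, 1.67, 2.25, 1.66 and 1.82 with vehicle and 3.87, 4.98, 4.61 and 3.73 with CN03. SEMA3D, a related semaphorin of the epicardium, was at 6.41, 6.69, 6.70 and 6.88, 3.998, 4.54, 4.52 and 4.13 and 6.16, 6.08, 6.31 and 5.99. All 4 CN03 pools of SEMA3D lay below the fresh pools, and its net log2FC was -0.54, whereas the CN03 and fresh pools of SEMA3C overlapped. CDH5, the cadherin of endothelial junctions, was at 7.72, 7.23, 7.50 and 7.17 in fresh atria, 4.68, 5.53, 5.56 and 5.18 with vehicle and 7.49, 7.40, 7.31 and 6.69 with CN03. PENK, the precursor of enkephalins, was at 1.36, 1.38, 0.90 and 1.51 in fresh atria, -0.66, -0.56, -1.94 and -0.83 with vehicle and 1.18, 1.15, 1.32 and 0.64 with CN03. CHRNA7, a subunit of the nicotinic acetylcholine receptor, was at 1.69, 1.49, 1.69 and 1.54, -2.79, -0.90, -1.23 and -1.15 and 1.51, 1.73, 2.07 and 1.23, with CN03 pools on both sides of the fresh ones.

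DNAH1, a dynein heavy chain of cilia, had a vehicle log2FC of -2.43 and a net log2FC of 0.06. DOCK5, an exchange factor for Rac, had -2.26 and -0.17, and STEAP1, a metalloreductase family member, -2.21 and -0.50. TNNC2, the troponin C of fast skeletal muscle, was at 5.15, 5.13, 5.49 and 4.83 in fresh atria, 3.20, 3.09, 3.16 and 2.69 with vehicle and 5.23, 5.24, 5.11 and 5.23 with CN03. ENPP3, an ectonucleotidase, had a vehicle log2FC of -2.12 and a net log2FC of -0.47. E2F7, a repressor of E2F target genes, had -2.06 and 0.28.

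**Figure D4:**
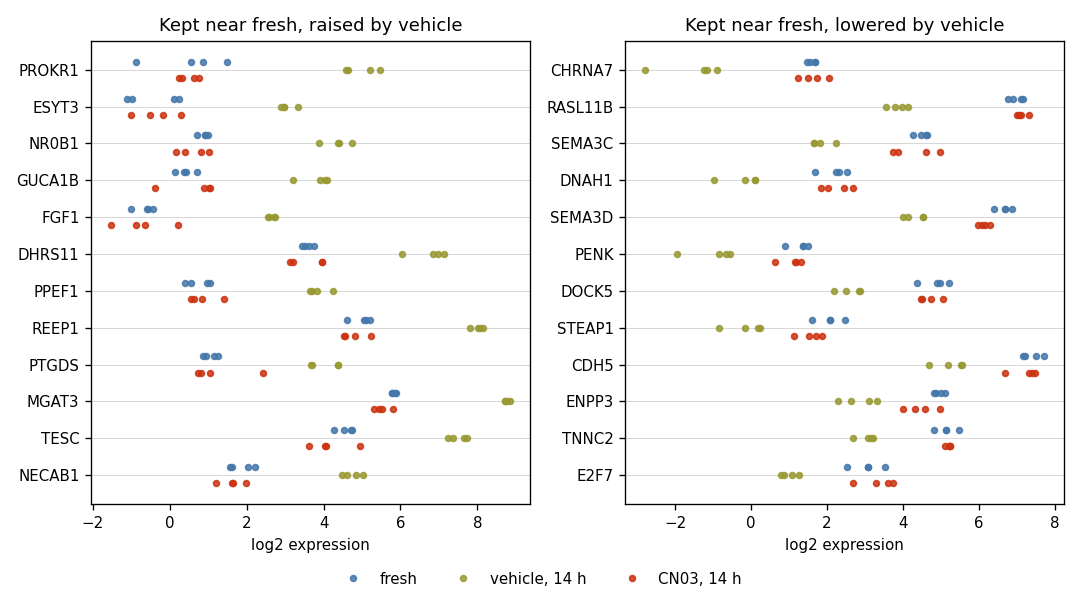
Log2 expression in each pool of the 12 kept genes with the largest vehicle rise (left) and the 12 with the largest vehicle fall (right). Each point is 1 of 4 pools per group. The vehicle pools stand apart from both other groups in every row, as the choice of these genes required, and the CN03 pools lie at or near the fresh pools, those of SEMA3D just below them.

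Members of the functional lists were also among the kept genes. Of the 57 ion channel genes that vehicle had moved, 8 were kept, where 19.2% of all genes moved by vehicle were kept. KCNJ3, a subunit of the atrial potassium channel opened by acetylcholine, was at 3.52, 3.11, 3.69 and 3.39 in fresh atria, 6.12, 5.68, 5.47 and 5.51 with vehicle and 3.86, 3.14, 2.64 and 3.76 with CN03. Its fresh and CN03 pools overlapped. KCNH2, the channel of the rapid delayed rectifier current, was at 3.64, 3.04, 3.82 and 3.68 in fresh atria, 5.44, 4.90, 5.19 and 5.54 with vehicle and 3.61, 3.40, 3.44 and 3.31 with CN03. KCNJ8, a pore subunit of potassium channels closed by ATP, had a vehicle log2FC of 2.13 and a net log2FC of 0.26. CACNA2D2, an auxiliary subunit of calcium channels, had 1.57 and -0.65. KCNA4, a channel of transient outward current, had 1.39 and 0.03, and the vehicle changes of CLCN2, a chloride channel, and SCN1A, a sodium channel, at 1.01 and -1.02, lay just past the limit and lost their call when 1 of several pools was left out. With a pseudocount of 1 the vehicle changes of KCNA4, CLCN2 and SCN1A were 0.89, 0.64 and -0.47, and none was called. Of the 4 atrial identity genes that vehicle had lowered, BMP10, a ligand of the atrial wall, was kept, at 8.63, 7.84, 8.34 and 8.16 in fresh atria, 7.26, 7.002, 6.99 and 7.05 with vehicle and 8.72, 8.31, 8.14 and 8.34 with CN03. NPPA, which vehicle had lowered by a like amount, was not kept but went past the fresh level.

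5 of the 12 BMP and TGF-beta genes that vehicle had moved were kept, against 19.2% of all genes moved by vehicle. They are BMP10, BMP6, BMPER, ID1 and NOG. BMP6, a BMP ligand, was at 4.92, 4.77, 4.35 and 4.60 in fresh atria, 2.82, 3.47, 3.57 and 2.70 with vehicle and 4.15, 4.55, 4.32 and 3.98 with CN03. ID1, a helix-loop-helix inhibitor induced by BMP, was at 5.44, 5.44, 5.40 and 5.43, 3.84, 4.09, 4.47 and 4.58 and 4.99, 4.95, 4.91 and 5.01, so its CN03 pools stayed below the fresh pools. BMPER, a binder of BMPs, had a vehicle log2FC of -1.24 and a net log2FC of -0.26, and NOG, the BMP antagonist noggin, had 1.31 and -0.26. In the matrix list, the basement membrane collagens COL4A1 and COL4A2 had vehicle log2FCs of -1.35 and -1.40 and net log2FCs of 0.20 and 0.10. These genes lie next to each other in vertebrates. VCAN, the proteoglycan versican, was at 7.97, 7.15, 7.71 and 7.81 in fresh atria, 5.39, 5.86, 5.90 and 5.81 with vehicle and 7.17, 7.90, 7.78 and 7.17 with CN03. COL14A1, a collagen of fibril surfaces, moved the other way, at 3.35, 4.07, 3.74 and 3.39, 6.25, 6.08, 6.08 and 6.38 and 3.86, 3.43, 3.74 and 3.18.

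4 of the 10 endothelial genes that vehicle had moved were kept, against 19.2% of all genes moved by vehicle. Besides CDH5 the kept endothelial genes were TIE1, a receptor tyrosine kinase, and the transcription factors FLI1 and SOX18. TIE1 was at 6.35, 6.04, 5.77 and 6.03 in fresh atria, 4.14, 4.50, 4.45 and 4.21 with vehicle and 5.67, 5.47, 5.42 and 5.31 with CN03, and FLI1 and SOX18 had net log2FCs of -0.52 and -0.24 after vehicle log2FCs of -1.25 and -1.15. The summed linear level of the 22 endothelial genes was between 1110 and 1450 in fresh atria, between 676 and 821 with vehicle and between 1103 and 1368 with CN03. With CN03, 6 of the 22, FLT1 among them, were higher than in fresh atria and 4 lower. The sum therefore does not show that each member lay near the fresh level. LRRN4, a mesothelial leucine-rich repeat protein, was kept in the epicardial list, at a vehicle log2FC of -1.40 and a net log2FC of -0.39. In the clock list, NPAS2, a partner of BMAL proteins, was at 3.18, 3.89, 3.24 and 3.78 in fresh atria, 5.99, 6.03, 5.97 and 6.06 with vehicle and 3.91, 3.76, 4.19 and 4.13 with CN03, and ARNTL2 and HLF had net log2FCs of 0.44 and 0.67. ETV4, a transcription factor induced by FGF, was at 5.46, 5.49, 5.14 and 5.24, 3.26, 3.66, 3.72 and 3.37 and 6.10, 6.14, 6.26 and 5.77, with CN03 pools above the fresh ones. BTG1, an inhibitor of proliferation, had a vehicle log2FC of 1.13 and a net log2FC of 0.11. In the sarcomere list, MYL4, the atrial essential light chain, had -1.17 and -0.37, and CAPN3, a muscle calpain, 1.54 and -0.48. In the pacemaker list, CPNE5, a copine, had 1.81 and -0.11, and NTM, an adhesion molecule of neurons, 1.17 and 0.23. In the cell cycle list, CDC20, an activator of the anaphase-promoting complex, had -1.20 and -0.47, and CCNB3, a B-type cyclin, -1.08 and -0.74, so both lay below the fresh level within the limit. GAPDH, the glycolytic enzyme often used as a reference gene, had a vehicle log2FC of 1.03 and a net log2FC of 0.56. The CN03 means of CCNB3 and GAPDH lay nearer to the vehicle mean than to the fresh mean. The vehicle changes of SOX18, MYL4, NTM, CCNB3 and GAPDH lay near the limit of 1 log2, and each lost its call when 1 pool or another was left out, so that their place among the kept genes is uncertain.

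Of the genes that went past the fresh level, those lowered by vehicle and raised by CN03 were led by ABRA, described above, and MURC, a caveolar protein of muscle. MURC was at -2.24, -1.38, -2.20 and -1.18 in fresh atria, -3.29, -2.80, -2.22 and -2.83 with vehicle and 3.35, 3.95, 3.47 and 3.53 with CN03. PHLDA2, a pleckstrin homology domain protein, was at 5.32, 5.09, 5.10 and 5.10, 3.76, 3.66, 4.03 and 3.99 and 8.48, 8.96, 9.12 and 8.63. The 3 groups of PHLDA2 stood apart, while the fresh and vehicle pools of MURC overlapped. AREG, an EGF receptor ligand, had a vehicle log2FC of -1.87 and a net log2FC of 4.12, and ALKAL1, a ligand of the ALK receptor, -1.59 and 4.70. Those raised by vehicle and lowered by CN03 included CAPN6, a calpain without protease activity, at 3.26, 2.48, 3.24 and 3.23 in fresh atria, 4.10, 4.50, 4.54 and 3.92 with vehicle and -1.50, -2.63, -2.12 and -1.49 with CN03. SCN2B, an auxiliary subunit of sodium channels, was at 4.25, 3.17, 4.20 and 4.14, 4.96, 5.05, 5.08 and 4.87 and 0.01, 0.05, -0.76 and 0.65. LRRN1, a leucine-rich repeat membrane protein, had a vehicle log2FC of 1.31 and a net log2FC of -3.87, and KLHL35, a Kelch-like protein, 1.74 and -4.002. The complement genes C1QA and C1QC were in this class too, but both lay near the lowest value with CN03 and neither net change passed the limits with a pseudocount of 1. With the same pseudocount the vehicle log2FC was -0.17 for ABRA, -0.19 for MURC, -0.21 for ALKAL1 and -0.52 for AREG. It was 0.998 for SCN2B and 0.85 for C1QA. These changes lay within the limit of 1 log2, so the place of these genes in the class is uncertain.

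Genes called in the same direction in both cultures had somewhat larger median changes with CN03. The class leaves out the genes that CN03 drew back toward or past the fresh level, so this follows in part from the rule. The median log2FC of those raised was 1.78 with vehicle and 2.30 with CN03, and that of those lowered was -1.53 and -1.91. KLF9, a transcription factor induced by glucocorticoids, was at -1.45, -1.82, -1.81 and -1.68 in fresh atria, 5.86, 5.57, 5.27 and 5.70 with vehicle and 5.62, 4.88, 5.15 and 5.53 with CN03. FSTL3, a binder of activin related to follistatin, was at -2.87, -3.03, -2.78 and -3.86, 4.15, 3.78, 4.03 and 4.41 and 4.86, 4.80, 4.70 and 4.77. COCH, a secreted matrix protein, had a vehicle log2FC of 6.78 and a net log2FC of 4.30, and RFESD, a Rieske domain protein, 6.75 and 5.32, so that CN03 stood below vehicle for both. Among those lowered, BHMT2, a methyltransferase that makes methionine, was at 7.30, 6.79, 7.05 and 7.07 in fresh atria, 2.64, 2.91, 3.55 and 2.85 with vehicle and 3.16, 2.80, 3.49 and 3.06 with CN03. GVINP1, from the family of very large interferon-inducible GTPases, had a vehicle log2FC of -3.997 and a net log2FC of -5.22. MOGAT2, an acyltransferase of triglyceride synthesis, had -4.50 and -4.77, while SLC16A14, a monocarboxylate transporter family member, and TMEM125 lay near the lowest value in cultured atria, and the net change of TMEM125 did not hold with a pseudocount of 1.

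The SAN values did not enter the fold changes that chose the kept genes, but the SAN libraries shared in the estimate of spread for each gene. With the 12 atrial libraries alone, 455 genes were kept, 439 of them among the 458. The SAN libraries gave a measure of the kept genes in other tissue of the same stage, although a pool number may join SAN and atrial preparations of the same embryos. Of the 229 genes that vehicle raised in atria and CN03 kept, 101 (44.1%) also rose with vehicle in SAN and 1 fell, against 8.01% and 5.59% of all genes, and their median SAN vehicle log2FC was 0.87. The genes that vehicle moved in atria and CN03 did not keep followed vehicle in SAN more often, with 60.6% of those raised in atria rising and 51.5% of those lowered falling. Of the 229 lowered genes, 73 (31.9%) fell with vehicle in SAN and 1 rose, with a median of -0.80. CN03 against vehicle in SAN lowered 153 (66.8%) of the raised genes and raised 0, against 17.1% and 10.2% of all genes. It raised 83 (36.2%) of the lowered genes and lowered 1.

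The net position in SAN was next compared with fresh SAN. The lowered genes had a median net log2FC of 0.01 in CN03 cultured against fresh SAN, and the interval lay within 1 log2 for 163 (71.2%), against 53.1% of all genes. The raised genes had a median of -0.30, the interval lay within 1 log2 for 130 (56.8%), and 52 (22.7%) were lower than in fresh SAN and 2 higher, against 19.2% and 13.1% of all genes. After quantile normalization between libraries 32 (14%) of the raised genes were lower than in fresh SAN and 10 (4.37%) higher, against 16.1% and 14.5% of all genes, so that the share lower lay above that of all genes as deposited and below it after this scaling. KCNJ8, kept in atria, was at 5.84, 5.69, 5.51 and 5.92 in fresh SAN and 3.79, 3.66, 4.28 and 3.83 in CN03 cultured SAN, a net log2FC of -1.85 (SE 0.17, adjusted p = 6.97e-10). PROKR1 was at 2.41, 2.78, 2.47 and 2.33 in fresh SAN and -0.48, -0.60, -0.36 and -0.80 in CN03 cultured SAN, a net log2FC of -3.06 (SE 0.33, adjusted p = 1.15e-08). KCNJ3 had a SAN net log2FC of -0.14 (SE 0.29), which did not pass the test (adjusted p = 0.68). BMP10 rose in SAN, from 3.93, 2.94, 2.40 and 1.90 in fresh to 5.50, 5.09, 4.95 and 4.19 in CN03 cultured SAN, a net log2FC of 2.14 (SE 0.32, adjusted p = 2.13e-06). MYL4 rose there too, by a net log2FC of 1.75 (SE 0.18, adjusted p = 1.00e-08). The same rule applied to SAN kept 301 genes, which is 17.8% of the 1690 that vehicle moved there and 2.42% of all genes. Of these, 109 were on both lists, 23.8% of the atrial and 36.2% of the SAN list, 108 of them with the same direction of vehicle change.

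**Figure D5:**
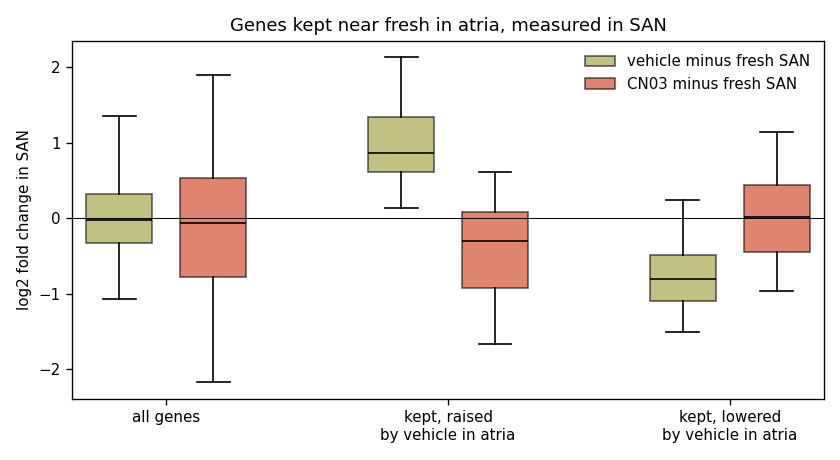
Log2FC in SAN for all 12422 genes, for the 229 genes kept in atria after a vehicle rise and for the 229 kept after a vehicle fall. Boxes span the quartiles with the median as a line and whiskers span the 5th to the 95th percentile of genes; the left box of each pair is vehicle minus fresh SAN and the right box CN03 minus fresh SAN. The vehicle medians are 0.87 and -0.80 for the kept genes and the CN03 medians -0.30 and 0.01.

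Over all genes, the net change differed between atria and SAN by more than 1 log2 for 719 genes that were higher in atria (5.79%) and 216 that were lower (1.74%). The genes given here were named for the size of their atrial change. ABRA was among the former, with a net log2FC of 10.40 in atria and 5.54 in SAN, where the difference of 4.86 had an adjusted p of 2.37e-08. TNC had 7.03 and 3.03, a difference of 3.995 (adjusted p = 1.01e-06). NPPA was among the latter, with a net log2FC of 4.05 in atria from a mean fresh level of 10.50 and of 7.32 in SAN from a mean fresh level of 5.75, a difference of -3.27 (adjusted p = 2.89e-07).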

How the data were processed

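RNA of chick atria and SAN was sequenced in 24 libraries, 4 pools in each of 6 groups, and the groups and pool numbers were taken from the sample labels. The authors made ribosomal RNA-depleted, stranded paired-end libraries, mapped them with kallisto, filtered genes with edgeR and deposited log2 expression values, normalized between libraries in a way not given in the sources used here. FastQC, limma and the GRCg7b build appear in the submitters' processing notes. 1 row without a symbol was left out, and read depth is unknown. Group means over the 24 libraries were fitted to these log2 values with limma 3.58.1 (R 4.3.3), leaving 18 residual degrees of freedom. Empirical Bayes moderation used a trend on mean level, and p-values were adjusted by Benjamini-Hochberg over 12422 genes. Calls needed an adjusted p below 0.05 and an absolute log2FC over 1. The fit was tested on simulated data. Vehicle and CN03 pools of the same number deviated together with r between 0.25 and 0.28 in all 4 pairs. The reported fit held no term for pool number, so this pairing was left out of the comparison that enters the choice of kept genes. An alternative fit held a replicate block, an effect of pool number shared by all 6 groups. No fit paired the vehicle and CN03 pools alone. The genes and lists were chosen with earlier results of these data known. The text names the 12 largest net rises and falls with pools that do not overlap, the 12 kept genes per direction with the largest vehicle change and vehicle pools apart, 6 per direction for the other classes, and up to 6 called members and every kept member of a list, without LOC symbols except among list members. Some genes that this rule picks are not reported here. Most lists came from textbook function. Those of ion channels, the respiratory chain and ribosomal proteins came from symbol prefixes, and the ion channel prefixes included GJ of gap junction genes. CCN1 was read as CYR61. Positions are from RefSeq on GRCg7b, to which 12231 symbols matched. No sequence is shown. Other alternatives changed the pseudocount, low-value filter, normalization, samples, block, weights, trend and limits, and left out each atrial library. Plots were made in Python 3.11.15 (matplotlib 3.10.9).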

Additional observations from a re-analysis of the deposited data

Results flagged for a closer look

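Within groups of 4 pools, 25 of the 498 groups examined had 1 pool whose gap to the nearest of the others passed Dixon's limit, and chance gives about 5% of groups. In CN03 pool 2, AREG was at 3.90 against 3.60 to 3.64 in the other 3 and GREM1 at 0.80 against 1.22 to 1.26. In CN03 pool 3, GPR182 was at -0.77 against -5.87 to -5.87 in the other 3, GUCA1B at -0.38 against 0.90 to 1.05, MYH7 at 10.04 against 10.40 to 10.41, NPR3 at 3.01 against 2.29 to 2.35 and TNNC2 at 5.11 against 5.23 to 5.24. In CN03 pool 4, CRYAB was at 4.13 against 4.48 to 4.55 in the other 3 and HMGCS1 at 7.78 against 8.01 to 8.04. In fresh pool 1, PHLDA2 was at 5.32 against 5.09 to 5.10 in the other 3. In fresh pool 2, C1QA was at 0.94 against -0.33 to -0.19 in the other 3, CAPN6 at 2.48 against 3.23 to 3.26, CPNE5 at 4.16 against 5.002 to 5.05, KCNJ8 at 3.18 against 3.43 to 3.45 and SCN2B at 3.17 against 4.14 to 4.25. In fresh pool 3, CCN2 was at 6.10 against 5.65 to 5.72 in the other 3, SOX18 at 2.87 against 3.52 to 3.65 and SPRY4 at -1.10 against -0.33 to -0.24. In fresh pool 4, HSD17B7 was at 2.30 against 2.91 to 2.998 in the other 3 and PTPN14 at 3.70 against 4.59 to 4.70. In vehicle pool 1, ATF3 was at 5.45 against 4.43 to 4.60 in the other 3 and FST at 1.96 against 2.62 to 2.65. In vehicle pool 4, RPL3L was at 3.10 against 2.61 to 2.64 in the other 3 and TH at 0.67 against 1.46 to 1.60. The row without a symbol stood at 17.81 in CN03 pool 2 against 16.40 to 16.62 in the other CN03 pools.

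The net change differed between atria and SAN for 63 of the 165 genes examined. The call used the interaction contrast of limma, an adjusted p under 0.05 and a difference above 1 log2. Over all genes tested, 5.79% were called with a higher net change in atria and 1.74% with a lower one. The differences are given as net log2FC in atria minus net log2FC in SAN. The net change in atria was used to choose many of these genes, so the differences are a description. Among the genes kept near the fresh level in atria, the difference was 3.04 for PROKR1, 2.49 for GUCA1B, 2.11 for KCNJ8, 1.84 for BMPER, 1.77 for NECAB1, 1.66 for NR0B1, 1.48 for NOG and 1.44 for CLCN2. It was also 1.41 for CPNE5, 1.29 for DNAH1, 1.10 for ID1, 1.09 for NTM, 1.07 for TESC, 1.05 for CAPN3 and 1.05 for CDH5. In the same class it was negative, at -2.12 for MYL4, -2.09 for SCN1A, -2.003 for BMP10, -1.34 for SEMA3C, -1.22 for RASL11B, -1.17 for STEAP1 and -1.07 for MGAT3. Among genes that rose more in atria, it was 4.86 for ABRA, 4.24 for IL8L1, 3.995 for TNC, 3.76 for MURC, 3.63 for FST, 3.17 for CSF3, 3.09 for LIPG and 3.02 for RFESD. It was also 2.59 for MYBPC1, 2.52 for TRPC4, 2.23 for CER1, 2.01 for LIF, 1.99 for FSTL3, 1.98 for SPRY4, 1.86 for CCL4 and 1.83 for KCNK3. It was also 1.70 for DNAJA4, 1.70 for KLF9, 1.67 for FLT1, 1.61 for IL8L2, 1.60 for CRYAB, 1.58 for TWIST1, 1.23 for PFKFB3 and 1.17 for ANKRD1. It was also 1.17 for COCH, 1.15 for MYL10 and 1.13 for BHLHE40. Among genes that fell less in atria, it was 1.58 for SCN2B. Among genes that fell more in atria, or fell in atria alone, it was -4.23 for GPR182, -3.46 for CYTL1, -3.06 for GREM1, -2.71 for HBZ, -2.55 for BHMT2, -1.80 for C1QTNF2, -1.62 for SMOC2 and -1.49 for LRRC17. It was also -1.33 for BMP5, -1.30 for RPL3L, -1.21 for KCNG1 and -1.11 for TH. Among genes that rose less in atria, it was -3.27 for NPPA.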

How the results depend on the processing

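The counts of called genes kept within 1.5 times under quantile normalization, median centring, the 12 atrial libraries alone, array weights, no mean-variance trend and a filter on mean log2 values above 1. With a pseudocount of 1, 124 genes were past the fresh level, and the other counts stayed within 1.5 times, 479 genes being kept, 377 of them among the 458. Without a fold change limit, the net comparison called 9383 genes, 4527 higher and 4856 lower, the vehicle comparison 7325, 3627 higher and 3698 lower, and 2140 genes were kept, 1012 raised and 1128 lowered by vehicle, with 4029 in the same direction and 819 past the fresh level. With limma's treat against a log2FC of 1, the net comparison called 2671 genes, 1316 of them lower, the vehicle comparison 1009, 605 higher and 404 lower, and 173 genes were kept, 94 raised and 79 lowered, with 526 in the same direction and 27 past the fresh level. These counts follow from the limits themselves. With a limit of 0.58 log2 for near, which is 1.5-fold, 149 genes were kept, 74 raised and 75 lowered. When CN03 and vehicle also had to differ by a log2FC above 1, 328 genes were kept, 168 raised and 160 lowered. Median net log2FCs of the lists were also computed after quantile normalization and median centring, and the SAN calls of the kept genes after quantile normalization, which were alternatives chosen after seeing the data.

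Leaving out each atrial library gave between 4236 and 4285 net calls, 2017 to 2047 higher and 2217 to 2238 lower. It gave 2288 to 2442 vehicle calls, 1210 to 1276 higher and 1059 to 1172 lower. It kept between 413 and 482 genes, 197 to 237 raised and 210 to 245 lowered, with 1256 to 1337 in the same direction and 224 to 249 past the fresh level. Of 3824 alternatives for 239 named results, 3793 kept their direction and call, 31 lost the call and 0 reversed. Some of these alternatives could not move the estimate. Leaving out a vehicle pool does not alter a net log2FC, leaving out a CN03 pool does not alter a vehicle log2FC, and the block alters neither. The tally therefore counts more alternatives than could have changed a direction. The calls lost were those of C1QA, C1QC, TMEM125, UPK1B and RPL3L with a pseudocount of 1, RPS27L with that or quantile normalization, MDM2 with quantile normalization, the vehicle changes of NTM, CLCN2, KCNA4 and SCN1A with a pseudocount of 1 (0.96, 0.64, 0.89 and -0.47) and of CLCN2 and GAPDH with quantile normalization (0.82 and 0.96), and, without 1 library, those of MYL4, NTM, CCNB3, GAPDH, SOX18, CLCN2 and SCN1A. The vehicle changes of ABRA, MURC, ALKAL1, AREG, SCN2B and C1QA, which are not in this tally, also lay within 1 log2 with a pseudocount of 1. Membership of the kept class depends on the vehicle call. Without fresh pool 3 the vehicle log2FC of MYL4 was -0.97, and without vehicle pool 2 that of CCNB3 was -0.95 and that of SOX18 -0.96. That of NTM was 0.97 without vehicle pool 4. That of GAPDH was between 0.97 and 0.98 without fresh pool 2, vehicle pool 1 or vehicle pool 4. That of CLCN2 was between 0.81 and 0.98 without fresh pool 2 or 4 or vehicle pool 1 or 4. That of SCN1A was between -1.07 and -0.75 without fresh pool 1 or 4 or vehicle pool 1, 2 or 3, and it also lost its call with the block, at -1.02.

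Same-numbered CN03 and fresh pools deviated together with r of 0.15, 0.15, -0.01 and 0.33, and vehicle and fresh pools with r between 0.005 and 0.34, so the numbers were not taken as pairs in comparisons with fresh atria, although 3 of 4 CN03 pools correlated best with the fresh pool of their own number. Vehicle and CN03 pools of the same number deviated together more evenly, but the reported fit did not pair them. In a fit with a replicate block, 4242 genes differed between CN03 and fresh atria and 2379 between vehicle and fresh atria. It kept 471 genes, 454 of them among the 458, so that the block moved none of these counts by over 1.5 times. The block is shared by all groups and leaves each log2FC unchanged, so these counts do not test the pairing of vehicle with CN03 pools alone. Read depth is unknown, so counting error could not be separated from the spread of pools, and for genes near the lowest value of -5.87 the fold changes depend on how zeros were treated upstream.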
